A study of Mus musculus with 4 samples.

Results

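Abundant structural noncoding RNAs were examined in sorted B cells of mouse cervical lymph nodes. The set was listed by name and holds 9 genes: Rn45s, Malat1, Neat1, Rpph1, Rprl1, Rprl2, Rprl3, Rmrp and Rn7sk. Of these, 8 were rows among the 23418 gene symbols of the count table, and Rn7sk was not analysed here. The set was chosen by the read counts of Rn45s and Rprl3, which had been seen to vary between libraries, so the levels of these genes are given as a description without a test. The study has 2 groups with 2 libraries each. The control group carried the genotype label BL/10 and the other group the label NOD.B10. NOD.B10 mice combine the NOD background with the H2 region of C57BL/10 and serve in research on Sjögren's disease. All 4 libraries were labelled as cervical lymph node B cells, no treatment was named, and age was not given in the sources used here. Whether libraries of 1 strain came from separate animals is not stated in the labels, so the p-values rest on the spread among these libraries alone, which may be technical.

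These RNAs work as RNA and are not translated. Rn45s is the precursor that RNA polymerase I makes and that is cut into the ribosomal RNAs. Malat1 is a long RNA kept in nuclear speckles, where splicing factors gather, and Neat1 is the scaffold of paraspeckles. Rpph1 is the catalytic RNA of RNase P, which trims the 5′ end of transfer RNA precursors, and Rmrp is the RNA of the related enzyme RNase MRP, which takes part in ribosomal RNA processing. Both are made by RNA polymerase III, as is 7SK RNA, the product of Rn7sk, which holds the elongation factor P-TEFb inactive. Rprl1, Rprl2 and Rprl3 are listed by RefSeq as RNase P RNA genes similar to Rpph1. How much of a library such RNAs take is also a reading of how the library was composed.

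The sequences of the RNase P RNA genes are shown because the largest changes in the set were among them and the sequences are close to one another. They are GENCODE M21 transcripts on GRCm38, Rpph1 up to base 300 of 319, the assembly of mm10, written 5′ to 3′. Capitals in Rpph1 mark a unit of 21 bases that stands there 2 times in a row. In Rprl3 and Rprl2 capitals mark bases that differ from the aligned Rpph1 base, up to base 236, where the alignment ended.
Rpph1: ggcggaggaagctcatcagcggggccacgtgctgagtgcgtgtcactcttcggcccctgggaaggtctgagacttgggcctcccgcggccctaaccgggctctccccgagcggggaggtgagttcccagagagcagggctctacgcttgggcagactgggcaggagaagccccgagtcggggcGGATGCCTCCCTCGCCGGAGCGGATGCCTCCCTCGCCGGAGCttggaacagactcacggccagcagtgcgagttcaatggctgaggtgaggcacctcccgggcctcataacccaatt
Rprl3: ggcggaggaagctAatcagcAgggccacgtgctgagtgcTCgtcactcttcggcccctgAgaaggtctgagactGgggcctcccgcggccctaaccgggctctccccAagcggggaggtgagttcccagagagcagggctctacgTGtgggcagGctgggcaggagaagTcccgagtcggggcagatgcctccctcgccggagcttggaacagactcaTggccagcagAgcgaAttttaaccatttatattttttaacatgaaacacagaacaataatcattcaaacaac
Rprl2: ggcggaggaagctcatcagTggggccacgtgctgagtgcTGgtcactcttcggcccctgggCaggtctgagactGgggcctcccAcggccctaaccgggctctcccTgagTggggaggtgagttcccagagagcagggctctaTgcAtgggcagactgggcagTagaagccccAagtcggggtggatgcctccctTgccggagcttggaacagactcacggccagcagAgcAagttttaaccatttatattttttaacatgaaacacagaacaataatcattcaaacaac
Over 236 aligned bases Rprl3 differed from Rpph1 at 14, an identity of 94.1%, and Rprl2 differed at 15, an identity of 93.6%. For Rprl1 the identity was 91.5% over 234 bases. Each of the 3 alignments also had 21 gap bases, between bases 183 and 205 of Rpph1, where its repeat (184 to 225) begins. None of the 3 sequences held an exact copy of the unit, though Rprl3 and Rprl2 as printed each hold a close match to it. The longest stretch shared base for base with Rpph1 was 37 bases in Rprl3, 32 in Rprl2 and 27 in Rprl1. Rmrp shared no stretch longer than 9 bases with Rpph1. Rpph1 lies on chromosome 14 (50807447 to 50807771, minus strand), Rprl3 on chromosome 8 (3803125 to 3803359, minus strand), Rprl2 on chromosome 3 (22251370 to 22251607, plus strand) and Rprl1 on chromosome 6 (69326937 to 69327174, minus strand), inside the immunoglobulin kappa locus Igk. These are RefSeq positions on GRCm38.p6.

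Libraries held 19328803 to 29372751 counted reads. The 8 B cell markers examined, among them Cd79a and Ms4a1, summed to 7975 to 8226 CPM (reads per 1000000 reads of TMM-scaled library size) in BL/10 and 8232 to 8455 CPM in NOD.B10, and 0 of 8 were called. Markers of other cells moved with the strain. All 12 T cell markers were called lower in NOD.B10, with sums of 444.5 to 519 CPM in BL/10 and 48.7 to 51.4 CPM in NOD.B10, and none was at 0 reads. All 4 tested natural killer cell markers were lower (sums of 11.6 to 21.5 against 2.85 to 3.76 CPM), and Klrk1 and Gzma were at 0 reads in NOD.B10. Of the 3 erythroid markers tested 2 were lower (238.5 to 471 against 4.27 to 10.3 CPM), with Slc4a1 at 0 reads in NOD.B10, while Hba-a1 was at 0 reads in all 4 libraries. For macrophages 3 of 6 markers were lower (summed CPM of 123 in both BL/10 libraries against 39.9 to 54.4), while Emr1 had a log2 fold change of 0.64, not called. For plasma cells 1 of 5 was lower (563.5 to 1126 against 474 to 531 CPM). For stroma and endothelium 1 of 3, Pdgfrb, was called higher (4.73), while Pecam1 (0.22) and Cdh5 (−0.47) were not called. The sums of that whole list were 358 to 368 CPM in BL/10 and 416.5 to 427 CPM in NOD.B10. The part of these cells in the results below was not tested. In bulk libraries, fewer cells of a type and less of an RNA in each cell cannot be told apart.

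The members together took 4.97% and 7.27% of the reads in the BL/10 libraries and 4.15% and 4.22% in the NOD.B10 libraries. The mean share was 6.12% ± 1.63 (SD, n = 2) in BL/10 and 4.19% ± 0.0523 in NOD.B10. Both BL/10 libraries lay above both NOD.B10 libraries, and the gap between the BL/10 libraries was wider than the gap between the lower of them and NOD.B10. Rn45s and Malat1 supplied nearly all of the joint share, 4.64% and 6.99% in BL/10 and 3.94% and 4.15% in NOD.B10. Most of the strain difference lay in Rn45s, by which the set was chosen. The mean share differed by −1.93 percentage points for all members and by −1.67 for Rn45s alone. Malat1 had mean shares of 2.71% in BL/10 and 2.61% in NOD.B10. The other 6 members made up 0.327% and 0.285% of the BL/10 libraries and 0.209% and 0.0772% of the NOD.B10 libraries.

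**Figure D1:**
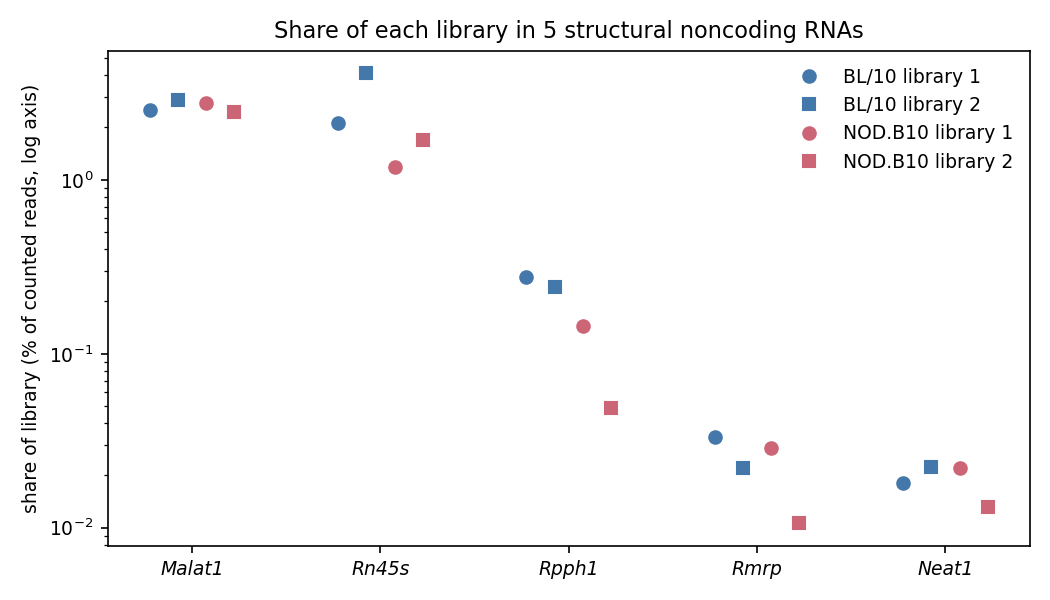
Share of counted reads (percent, log axis) taken by Malat1, Rn45s, Rpph1, Rmrp and Neat1 in each library; each point is 1 library, coloured by strain, with circles for library 1 and squares for library 2. Malat1 stays between 2.46% and 2.89%, Rn45s spans 1.18% to 4.1%, and Rpph1 is lowest in NOD.B10 library 2 at 0.049%.

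Rn45s, the ribosomal RNA precursor, was lower in both NOD.B10 libraries and differed widely within each strain. It had 619059 and 1072130 reads in BL/10 and 227782 and 428739 reads in NOD.B10, or 2.11%, 4.1%, 1.18% and 1.69% of the libraries. The groups did not overlap, as was also true of 55.6% of the genes tested. The second library was the higher one in both strains, by 1.99-fold in BL/10 and 1.42-fold in NOD.B10. Its mean of 31220 ± 14600 CPM in BL/10 was 2.18 times the 14300 ± 3526 CPM of NOD.B10. The strain difference in log2 fold change was −1.13 and ranged from −1.54 without the first BL/10 library to −0.56 without the second. The count covers a gene model of 5833 bases, shorter than the whole precursor, and how reads from the many ribosomal DNA copies were treated is not given in the sources used here.

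The size of Rn45s changes the scale of every other gene only a little. Leaving its reads out of the library total would raise all other CPM values by 2.15% and 4.28% in the BL/10 libraries and by 1.19% and 1.72% in the NOD.B10 libraries. With Rn45s left out of the library sizes, 1989 genes were called between the strains, against 1986 with it. The 3 genes whose log2 CPM, centred over the 4 libraries, lay nearest to that of Rn45s were Ahnak, Rps24 and Hspa8, at root mean square differences of 0.21, 0.26 and 0.26 among 5341 genes searched. Ahnak, for example, had 336.5 and 524.5 CPM in the BL/10 libraries, against 197 and 199 CPM in NOD.B10. Rps24 had 312 and 271.5 CPM in NOD.B10, so neither gene followed the rise of Rn45s from the first to the second library there. Here and for Malat1 and Neat1 below, the nearest genes are the closest of many over only 4 libraries. Whether they share any regulation with the member was not tested.

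Malat1, the speckle RNA, was the steadiest of the set. It had 743009 and 754541 reads in BL/10 and 533909 and 623506 reads in NOD.B10, which is 2.53%, 2.89%, 2.76% and 2.46% of the libraries. The strains overlapped, and Malat1 ranked first or second among all genes by reads in every library. The means were 27160 ± 2936 CPM (BL/10) and 26040 ± 2297 CPM (NOD.B10), and Malat1 did not pass the test (a log2 fold change of −0.06 with an SE of 0.109, edgeR adjusted p = 0.792). The sign turned without the second BL/10 library (0.04) and without the second NOD.B10 library (0.03). Malat1 lies on chromosome 19 (5795690 to 5802672, minus strand) and overlaps Mascrna, the small RNA cut from its 3′ end. The genes nearest to its pattern were Ier5, Ucp2 and Rbbp7, at root mean square differences of 0.017, 0.02 and 0.021 in log2 CPM over the 4 libraries.

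Neat1, the paraspeckle scaffold, was far less abundant and also overlapped between the strains. Its gene lies 22035 bases from Malat1 on the same strand of chromosome 19 (5824708 to 5845480). The libraries held 5298 and 5822 reads in BL/10 and 4237 and 3353 reads in NOD.B10, or 179 and 226 CPM and 219.5 and 131 CPM. The second NOD.B10 library was the lowest and the first NOD.B10 library sat between the BL/10 libraries. Neat1 did not pass the test (a log2 fold change of −0.21 with an SE of 0.292, adjusted p = 0.744), but with NOD.B10 library 1 left out it was called lower (−0.63, adjusted p = 0.00338), and without the second the sign turned (0.12, adjusted p = 0.743). Within NOD.B10 the first library was 1.67 times the second, and 0.898% of the 5458 genes whose average log2 CPM was 5 or more were at least as far apart there. The counted length was 3177 bases of a RefSeq gene span of 20773, so the count covers part of the locus and does not describe the long isoform. Jakmip1, Sik1 and Hnrnpa3 were nearest in pattern, at root mean square differences of 0.074, 0.096 and 0.12 in log2 CPM.

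Rpph1, the RNA of RNase P, was lower in NOD.B10 in both libraries, with a wide gap between them. Reads numbered 81103 and 63005 in BL/10 and 28055 and 12441 in NOD.B10. In CPM these were 2738 and 2441 against 1454 and 487. The groups did not overlap, which was also true of 55.6% of the genes tested. The means were 2590 ± 210 and 970 ± 683 CPM, a ratio of 2.67, but the log2 fold change of −1.42, with an SE of 0.752, did not pass (adjusted p = 0.433). Leaving out NOD.B10 library 1 it was −2.42 (adjusted p = 7.19e-40) and leaving out library 2 −0.83 (adjusted p = 4.94e-06), since with 1 library left the spread between the NOD.B10 libraries no longer enters. It was also called by limma-voom (−1.64, adjusted p = 0.0103) and with non-robust dispersion (−1.42, adjusted p = 0.0235).

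The 3 RNase P RNA-like genes went the other way and had at most 3 reads in either BL/10 library. Rprl3 had 0 and 1 reads in BL/10 and 2353 and 1007 reads in NOD.B10. With 1 read over the BL/10 group the ratio was 4153, with a 95% counting interval of 745 to 164100, which describes the pooled reads of these libraries and is no test between the strains. Rprl2 had 3 and 1 reads in BL/10 and 269 and 98 in NOD.B10, a ratio of 113 with a counting interval of 43.9 to 418.5. Rprl1 had 0 reads in both BL/10 libraries and 6 and 4 in NOD.B10, at least 4.12-fold higher against a floor of 3 reads over the BL/10 group, and it was too low to be tested. In each case both NOD.B10 libraries lay above both BL/10 libraries, while 55.6% of all genes tested showed no overlap between the strains. With so few BL/10 reads, and with Rprl3 used to choose the set, this separation is a description only. The first NOD.B10 library was the higher one each time.

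Of the 5 members given a test, 1, Rprl2, was called (log2 fold change 6.84, SE 0.927, adjusted p = 0.00339), while 15.2% of the 13075 genes tested were called, 6.55% higher and 8.63% lower. Rprl2 passed the filter on low counts only through NOD.B10, so this call had to differ and is not read as support. The call was lost when either BL/10 library was left out (adjusted p = 0.186 for library 1 and 0.169 for library 2). The number of members called was 0 without either BL/10 library, 4 without the first NOD.B10 library and 2 without the second.

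**Figure D2:**
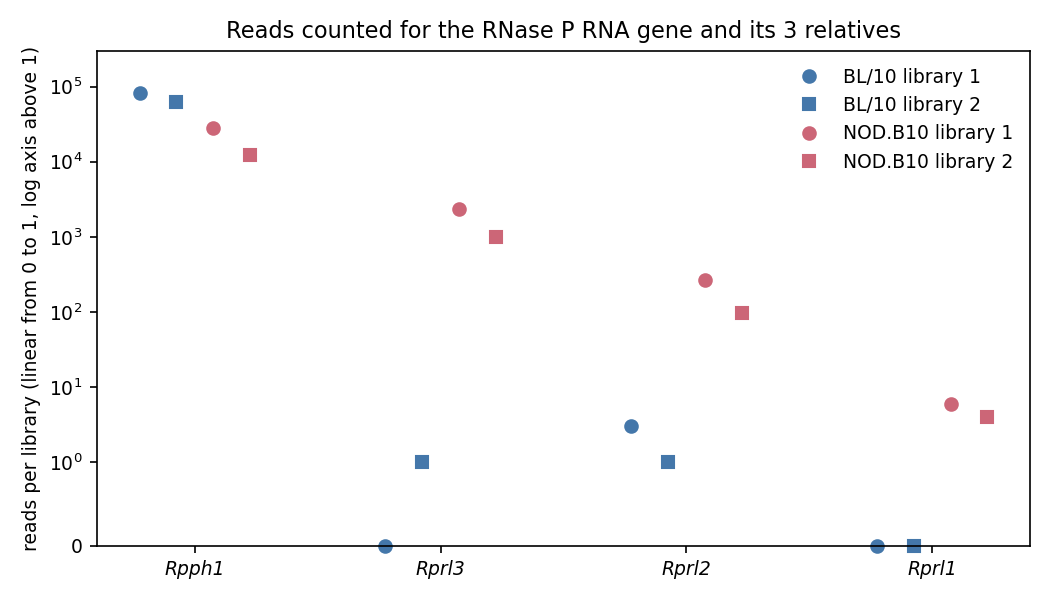
Reads per library for Rpph1, Rprl3, Rprl2 and Rprl1; the axis is linear from 0 to 1 read and logarithmic above, and each point is 1 library. Rpph1 is higher in BL/10, while Rprl3 and Rprl2 have at most 3 reads in a BL/10 library and 98 to 2353 in a NOD.B10 library.

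Within the RNase P family, the division of reads between Rpph1 and its relatives was alike in the NOD.B10 libraries although their levels were not. The 3 relatives held 8.57% of the family's reads in the first NOD.B10 library (2628 of 30683, exact 95% binomial interval 8.25% to 8.88%) and 8.19% in the second (1109 of 13550, interval 7.73% to 8.66%). In BL/10 they held 0.0037% (3 of 81106) and 0.00317% (2 of 63007). The intervals of the NOD.B10 libraries overlap, and cover counting error only. Rprl3 supplied 89.5% and 90.8% of the relatives' reads in NOD.B10, with intervals of 88.3% to 90.7% and 89% to 92.4%. Rpph1 had 11.9 and 12.3 reads for each Rprl3 read there, while the summed family stood at 1590 and 531 CPM.

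The level of the relatives in NOD.B10 was small beside the difference in Rpph1. The relatives summed to a mean of 0.0894 ± 0.0168 CPM for BL/10 and 89.8 ± 65.6 CPM for NOD.B10, while the mean of Rpph1 was 1619 CPM lower in NOD.B10. Over all 4 genes the family mean was 2590 ± 210 CPM for BL/10 and 1060 ± 749 CPM for NOD.B10, a ratio of 2.44 against 2.67 for Rpph1 alone. Given sequences this close and stretches of up to 37 bases shared with Rpph1, the counts of the 4 genes are uncertain. Whether reads of one copy were counted at another was not tested. The reference tables used are for C57BL/6J, which is neither of the strains compared.

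Rmrp, the RNA of RNase MRP, followed Rpph1 across the libraries in part. Its reads were 9742 and 5727 in BL/10 and 5531 and 2695 in NOD.B10, or 329, 222, 287 and 106 CPM. The strains overlapped, and the first library was the higher one in both, by 1.48-fold in BL/10 and 2.72-fold in NOD.B10. Its log2 fold change of −0.49, with an SE of 0.722, did not pass (adjusted p = 0.775). With NOD.B10 library 1 left out it was called lower (−1.39, adjusted p = 6.2e-13), and without the second the sign turned (0.06, adjusted p = 0.892). It lies on chromosome 4 (43492785 to 43493059, minus strand). The ratio of Rpph1 to Rmrp reads was 8.33 and 11 in BL/10 and 5.07 and 4.62 in NOD.B10, so that in both NOD.B10 libraries Rpph1 was low relative to Rmrp as well.

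**Figure D3:**
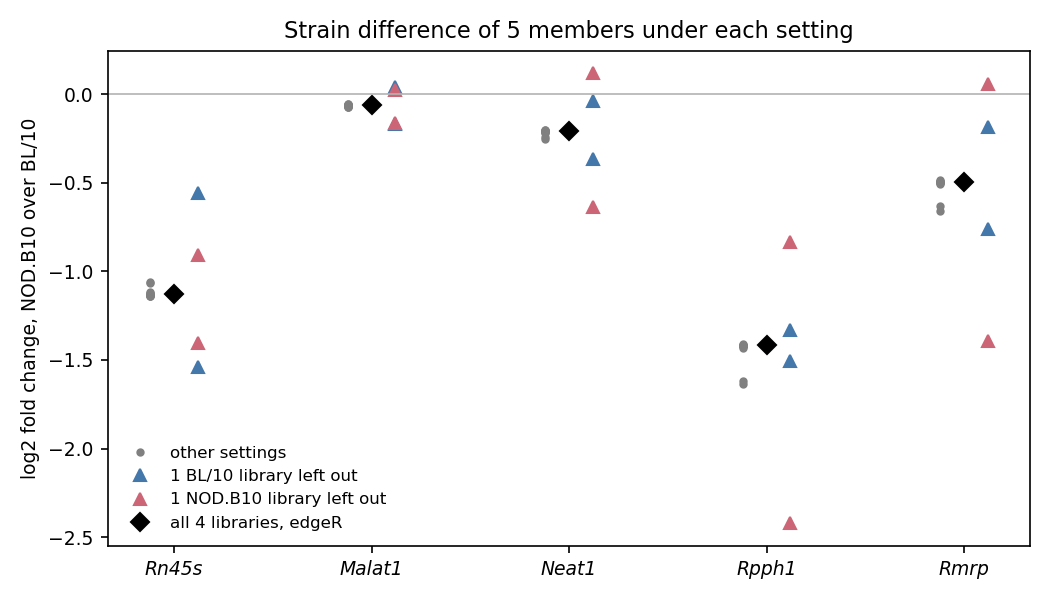
Log2 fold change (NOD.B10 over BL/10) of Rn45s, Malat1, Neat1, Rpph1 and Rmrp; diamonds are the fit with all 4 libraries, grey dots other normalisations, filters and tests, and triangles the fits with 1 library left out. Rpph1 ranges from −2.42 to −0.83 and Rn45s from −1.54 to −0.56, while Malat1, Neat1 and Rmrp lie on both sides of 0.

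Within NOD.B10, the RNase P and RNase MRP RNAs were higher in the library where Rn45s was lower. There the first library exceeded the second by log2 1.58 for Rpph1, 1.44 for Rmrp, 1.62 for Rprl3 and 1.73 for Rprl2, with 0.5 added to each CPM. Rprl2, at 13.9 and 3.84 CPM there, lay below the level of the genes used for comparison. The median absolute difference over those 5458 genes, with an average log2 CPM of 5 or more, was 0.11. Only 0.165% of those genes were at least as far apart as Rpph1 and 0.293% as far as Rmrp. In BL/10 the differences were 0.17 for Rpph1, a distance met by 40.8% of genes, and 0.57 for Rmrp, met by 2.36%, while Rprl3 and Rprl2 had too few reads there to compare. Rn45s was lower in the first library of both strains, by log2 values of −0.99 and −0.51.

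**Figure D4:**
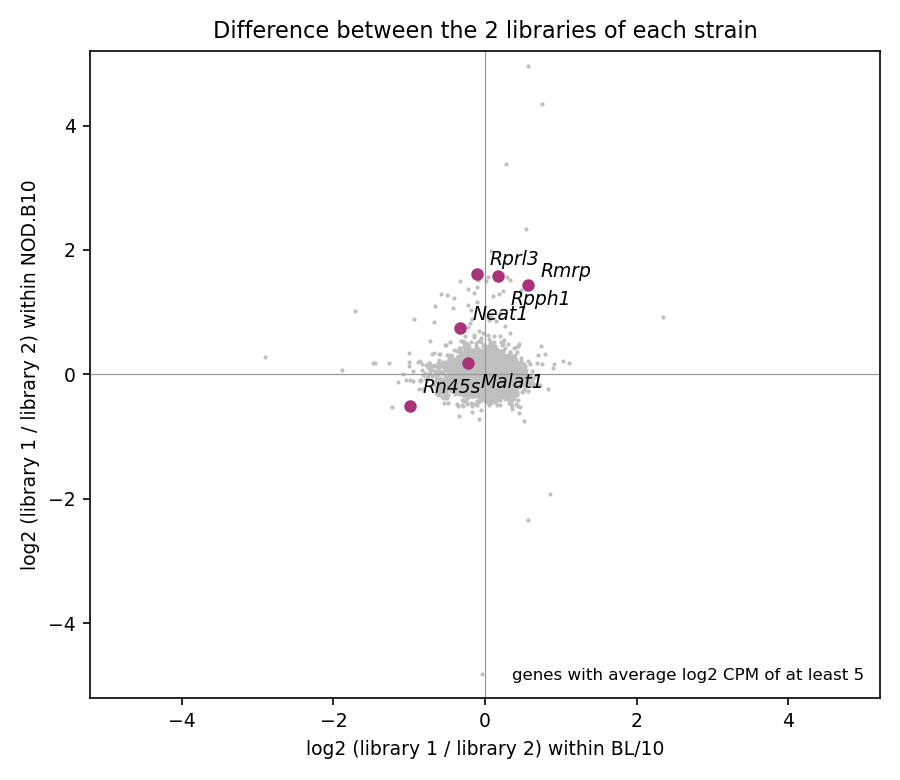
Each point is a gene, with the log2 ratio of library 1 to library 2 within BL/10 on the horizontal axis and within NOD.B10 on the vertical axis; members are named and coloured. Rpph1, Rprl3 and Rmrp sit near 1.5 on the vertical axis, Rn45s is below 0 on both axes, and Malat1 lies within the cloud of other genes.

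Levels of different members can be set side by side only per length. Per kilobase of counted length Rpph1 stood at 7969 ± 646 CPM in BL/10, above Rn45s at 5353 ± 2502, Malat1 at 3890 ± 420.5, Rmrp at 1002 ± 275 and Neat1 at 63.7 ± 10.4. In NOD.B10 Malat1 led at 3729 ± 329, followed by Rpph1 at 2986 ± 2103, Rn45s at 2451 ± 604.5, Rmrp at 713 ± 465.5, Rprl3 at 340 ± 246, Neat1 at 55.2 ± 19.6 and Rprl2 at 37.3 ± 30. Neighbours in the NOD.B10 order from Malat1 to Rn45s, Rmrp and Rprl3, and Neat1 and Rprl2 lay within their spread, as did Rn45s and Malat1 in BL/10. By this per-length level Rpph1 had ranks 1 and 2 among all genes in the BL/10 libraries and ranks 3 and 10 in the NOD.B10 libraries. For genes as short as Rpph1 and Rmrp the length that reads can come from is shorter than the gene, so per-length levels are approximate.

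For members in the count table that have a position, other than Malat1, the nearest tested protein-coding gene was read from the same fit. Parp2, which encodes a DNA repair enzyme, starts 125 bases from Rpph1 and is transcribed away from it. It had 1207 and 1101 reads in BL/10 and 463 and 752 reads in NOD.B10 and was called lower (log2 fold change −0.64, SE 0.151, adjusted p = 0.0111). Frmd8, 5493 bases from Neat1, was also called lower (−0.71, adjusted p = 0.00185), and Tbl1xr1, 34775 bases from Rprl2, was called higher (0.34, adjusted p = 0.03). The other 3 were not called: Ccdc107 near Rmrp (−0.21, adjusted p = 0.677), Cd209a near Rprl3 (−0.06, adjusted p = 0.978) and Rpia, 1438545 bases from Rprl1 (−0.32, adjusted p = 0.159). In GENCODE M21 a model of Ccdc107 overlaps Rmrp on the opposite strand, and since the strand setting of the counting is unknown their reads may not be separated.

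The genes for proteins that make, bind or process these RNAs gave few calls. Of 15 tested genes of RNA polymerase I and its factors 1 fell and 0 rose, with a median log2 fold change of −0.07. Polr1b, its second largest subunit, fell from 42.6 ± 4.58 to 29.5 ± 1.01 CPM (−0.53, SE 0.143, adjusted p = 0.0231), a call that did not hold when BL/10 library 2 (adjusted p = 0.0921) or NOD.B10 library 1 (adjusted p = 0.0907) was left out. Of 33 genes of ribosomal RNA processing 1 rose and 1 fell, with a median of 0.01. Pes1, needed for maturation of the large subunit RNA, rose from 47.1 ± 11.6 to 85.1 ± 9.82 CPM (0.85, SE 0.168, adjusted p = 0.00658), and Npm1, the nucleolar chaperone, fell from 232 ± 37.4 to 149 ± 13.6 CPM (−0.64, SE 0.129, adjusted p = 0.00485). The share called was 6.67% and 6.06% in these lists, beside 15.2% over all genes.

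None of the 10 tested protein genes of RNase P and RNase MRP was called, and their median was 0.10. The subunit gene Pop7 stood at 7.51 ± 2.8 CPM (BL/10) and 12.1 ± 2.51 CPM (NOD.B10), with a log2 fold change of 0.69 (adjusted p = 0.135), and Pop4 at 11.3 ± 0.895 and 7.24 ± 2.81 CPM (−0.65, adjusted p = 0.148). For 7SK and P-TEFb, 0 of 8 genes were called, with a median of 0.02. Cdk9, the kinase of P-TEFb, had a log2 fold change of −0.18 (adjusted p = 0.372). RNA polymerase III and its factors had 1 higher and 0 lower of 31, with a median of 0.02. The member called was Pou2f1, the octamer-binding protein Oct-1, at 195.5 ± 4.27 and 253 ± 19.9 CPM (0.37, SE 0.107, adjusted p = 0.0312). Leaving out NOD.B10 library 1 (adjusted p = 0.331) or blocking on the replicate number (adjusted p = 0.0552) ended that call.

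Paraspeckle and speckle proteins showed no calls, 0 of 17 and 0 of 20, with medians of 0.07 and −0.08. Rbm14 and Pspc1, both paraspeckle proteins, had log2 fold changes of 0.34 and 0.50 (adjusted p = 0.0741 and 0.0823). Rnps1 and Srsf7, which act in splicing, had −0.32 and −0.23 (adjusted p = 0.104 and 0.259). Over the 9 lists 7 genes were called with all libraries, and 20 without the second BL/10 library.

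**Figure D5:**
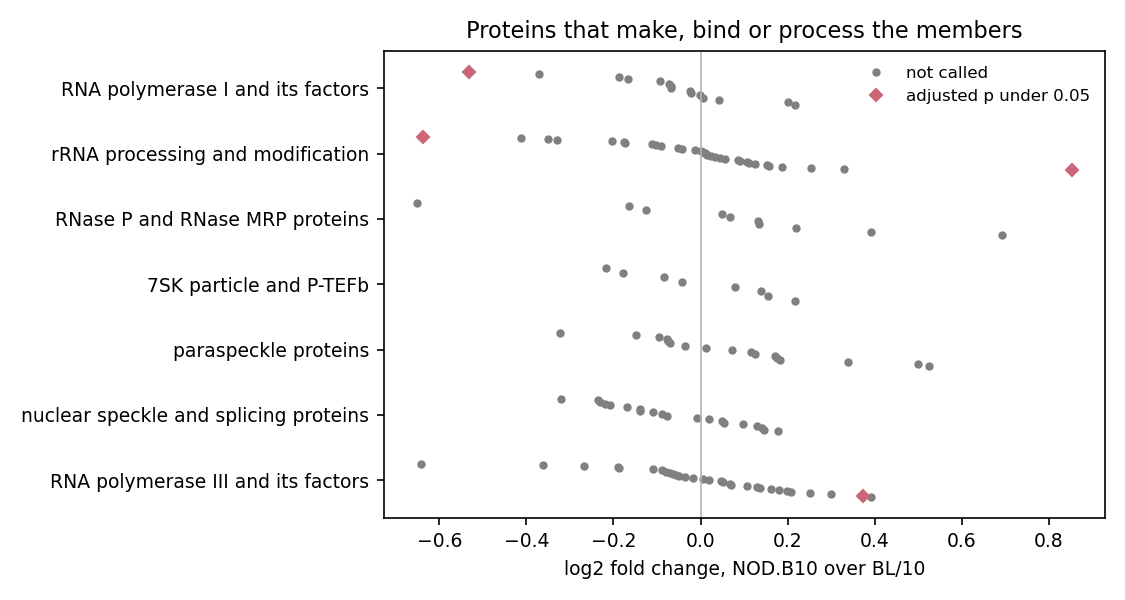
Log2 fold change (NOD.B10 over BL/10) of each tested gene in 7 lists of proteins that make, bind or process the members; diamonds are genes with an adjusted p under 0.05 and dots the others. All but 4 genes are dots, and the diamonds are Polr1b, Npm1, Pes1 and Pou2f1.

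Other noncoding RNAs gave a mixed picture. Of 13 genes tested in the list of other small structural RNAs 0 were called, with a median log2 fold change of −0.03. The 13 include Snrpa (0.30), which encodes a protein, so the median is not of RNAs alone. Rnu12, the U12 spliceosomal RNA, had 87 and 79 reads in BL/10 and 30 and 31 in NOD.B10 (−1.12, adjusted p = 0.113), and Snord118, the U8 nucleolar RNA, had 9 reads in each BL/10 library and 16 and 33 in NOD.B10 (1.70, adjusted p = 0.132). Of 25 other long noncoding RNAs 1 rose and 2 fell, 12% of those tested, beside 15.2% called over all genes. Kcnq1ot1, an imprinted antisense RNA, rose from 274 ± 15.6 to 760 ± 184 CPM (1.47, SE 0.155, adjusted p = 2.28e-04), a call lost without either BL/10 library (adjusted p = 0.237 and 0.199). Meg3, an imprinted RNA, had 182 and 87 reads in BL/10 and 3 and 0 in NOD.B10 (adjusted p = 2.74e-04). Miat had 31 and 20 reads in BL/10 and 0 in both NOD.B10 libraries (adjusted p = 0.00514). The T cell and natural killer cell markers given above fell between the same groups, and their part in the falls of Meg3 and Miat was not tested.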

How the data were processed

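RNA sequencing reads were counted per gene by the authors, who deposited 1 table of raw read counts with a length for each gene symbol. Per the labels' protocols, RNA was taken with a Qiagen kit and libraries followed an Illumina protocol. The submitters' processing notes name HISAT2 2.1.0, SAMtools 1.3, Subread 1.6.5, featureCounts and mm10. Annotation, strand setting and handling of multi-mapping reads: not given in the sources used here.

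Over the whole table, strains were compared by edgeR 4.0.16 quasi-likelihood tests in R 4.3.3 (robust dispersion, TMM, two-sided, Benjamini-Hochberg adjustment). The filterByExpr filter (count of 10, total of 15) kept 13075 genes, including 7 members. A gene is called at an adjusted p under 0.05, and fold changes are NOD.B10 over BL/10. The standard error (SE) is the absolute log2 fold change divided by the root of F. DESeq2 1.42.0 and limma-voom 3.58.1 were alternatives. The test was run on simulated counts first, where 13 of 150 calls were false. It recovered 28% of 1.5-fold changes, 70% of 2-fold, 84% of 4-fold and 92% of 8-fold changes, so small changes can go uncalled. With 2 libraries against 2, an exact permutation test has 6 regroupings and cannot reach 0.05, so none is given. Sequences were aligned locally with Biopython 1.88.

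The members and gene lists were chosen with earlier results of these data known. Named genes are all members, up to 3 called genes of each list by adjusted p or 2 by unadjusted p where none was called, the 3 genes nearest in pattern to Rn45s, Malat1 and Neat1 (average log2 CPM of at least 5, unnamed gene models left out), and neighbours by position, which were added after the values were seen. Some genes that this rule names are not reported here.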

Additional observations from a re-analysis of the deposited data

How the results depend on the processing

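The direction of the strain difference was the same under every alternative tried for Rn45s, Rpph1, Rprl2 and Rprl3, but not for the other tested members. For those named, the strains did not overlap, so leaving 1 library out could not turn the sign. Their unchanged direction is therefore not read as support. Malat1 turned to 0.0432 without the second BL/10 library and 0.0262 without the second NOD.B10 library, Neat1 to 0.118 and Rmrp to 0.0569 without the second NOD.B10 library. With 1 library left out in turn, the log2 fold changes ran from −0.168 to 0.0432 for Malat1, −0.634 to 0.118 for Neat1 and −1.394 to 0.0569 for Rmrp. The cause was not tested. The number of members called was 1 with all libraries, 2 with limma-voom, 2 with non-robust dispersion, and 0 to 4 with 1 library left out. A library left alone in its strain is assumed to vary like the other strain. Called genes of the 9 lists rose from 7 to 13 with no filter, where 17058 genes were tested, and numbered 10 to 20 with 1 library left out. Over all genes, 1986 were called, 1802 to 2584 under the other settings and 1758 to 2199 with 1 library left out. The difference in the members' joint share was −1.93 percentage points, and −3.08 to −0.778 with 1 library left out. For Rn45s alone it was −1.67, and −2.67 to −0.674.

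Replicate numbers are shared between the strains but nothing says that they pair the libraries. The differences between first and second libraries correlated at −0.0169 across genes. With the replicate block 1802 genes and 1 member were called, Rpph1 stayed uncalled (−1.62) and Rmrp too (−0.63, adjusted p = 0.135). Depth limits Rprl1, with 10 reads in all, and every BL/10 value of Rprl2 and Rprl3.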

Other observations

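Genes with symbols starting with Hist, most of which encode replication-dependent histones whose mRNAs end without a poly(A) tail, were looked at after the library differences of Rpph1 and Rmrp were seen. Of 57 past the filter, 55 were higher in the first NOD.B10 library than in the second, with a median log2 ratio of 1.03. In BL/10 14 of 57 were higher in the first library, with a median of −0.19. Between the strains 3 passed the test upward and 16 downward in NOD.B10 (edgeR, adjusted p under 0.05), with a median log2 fold change of −0.86. Over all genes tested, 6.55% were called higher and 8.63% lower. Over all 13075 genes tested, 6437 were higher in the first NOD.B10 library.

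Among 55 small nucleolar and Cajal body RNAs with a counted length under 400 bases and at least 100 reads, 35 were higher in the first NOD.B10 library, with a median log2 ratio of 0.25, and 28 were higher in the first BL/10 library, with a median of 0.01. Among all 112 genes outside the set under the same limits, the median was 0.34 in NOD.B10 and −0.09 in BL/10. The 112 include these 55 and 17 histone genes, whose median was 1.1 in NOD.B10. Medians there were 0.19 for 18 microRNA symbols and 0.19 for the 22 other genes.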
